A study of Homo sapiens with 6 samples.

Results

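The 6 peroxiredoxin genes (PRDX1 to PRDX6), the genes of the intracellular superoxide dismutases (SOD1 and SOD2) and the catalase gene (CAT) encode the central enzymes that remove superoxide and hydrogen peroxide. The 9 genes were taken by symbol from the deposited table of normalized read counts, where each symbol stood on 1 row, and they are 9 of the 61859 genes in it. All 9 passed the filter on low values. RNA was sequenced from OSC19SSZR, a human oral squamous cell carcinoma line that resists sulfasalazine, an inhibitor of cystine uptake. One group of samples received control siRNA (n = 3) and the other siRNA to FOXA1, a transcription factor of the forkhead family (n = 3), each by lipid transfection 48 h before the RNA was collected. Both groups are the same resistant line, so the drug-sensitive parent is not part of the comparison, which asked how expression in the resistant cells differs after FOXA1 is depleted. Nothing in the labels says that a group's libraries stem from separate cultures. The p-values therefore speak only of how far these 6 libraries spread, a spread that may be technical.

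Superoxide, a by-product of respiration and of oxidases, is turned into hydrogen peroxide by superoxide dismutases, SOD1 with copper and zinc in the cytosol and SOD2 with manganese in the mitochondrial matrix. Peroxiredoxins then reduce the peroxide through a reactive cysteine, which thioredoxin and thioredoxin reductase restore. PRDX1 and PRDX2 are mainly cytosolic, PRDX3 is mitochondrial, PRDX4 acts in the endoplasmic reticulum, PRDX5 is found in mitochondria, peroxisomes and cytosol, and PRDX6, which lacks the second reactive cysteine, is reduced with glutathione and also acts on phospholipids. Catalase splits hydrogen peroxide without a reductant, mostly in peroxisomes.

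The coding sequence around the codon of the reactive (peroxidatic) cysteine is shown to let the 6 peroxiredoxins be compared at the site of their chemistry. Each window is 33 bases of coding sequence, 5′ to 3′, from the GENCODE 29 transcripts (GRCh38), with the cysteine codon in capitals.
PRDX1: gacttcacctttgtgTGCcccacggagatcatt
PRDX2: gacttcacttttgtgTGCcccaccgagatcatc
PRDX3: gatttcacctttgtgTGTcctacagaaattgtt
PRDX4: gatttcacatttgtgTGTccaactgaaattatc
PRDX5: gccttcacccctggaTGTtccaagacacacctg
PRDX6: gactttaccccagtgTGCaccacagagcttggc
The capitals are codon 52 of PRDX1, 51 of PRDX2, 108 of PRDX3, 124 of PRDX4, 100 of PRDX5 and 47 of PRDX6, counted from the start codon. Of the 33 bases, PRDX2 shares 30 with PRDX1, PRDX3 shares 26, PRDX4 25, PRDX6 22 and PRDX5 18. Even so, exact identity was short. Over the whole coding sequences, the longest run shared by any of the 15 pairs was 17 bases, between PRDX1 and PRDX4 (gctggctggaaacctgg), and in 10 pairs no run of 12 or more bases was shared.

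FOXA1 fell from 1477, 1378 and 1459 normalized counts in the 3 control libraries to 247, 192 and 189 in the 3 FOXA1 siRNA libraries (log2 fold change -2.79, limma adjusted p = 3.32e-18). Between 16510125 and 25732569 reads per library could be recovered from the table. Of 10 squamous epithelial markers, 8 (KRT5, KRT17, TP63, CDH1, EPCAM, SFN, PERP and DSG3) had at least 719.9 normalized counts in every library. KRT14, a defining basal keratin, lay between 16.1 and 77.2, and KRT6A between 38.3 and 178 in 5 libraries but at 802 in control replicate 3. Summed over 8 fibroblast markers the level was 148 to 166 in the controls and 92.5 to 141 after knockdown, over 7 leukocyte markers 107 to 118 and 78.2 to 103, and over 5 endothelial markers 542 to 573 and 279 to 303. Most of each sum came from 1 gene, COL1A1, CD68 and CDH5 in turn, and their part in the results was not tested. PDGFRA, DCN, LUM and KDR were at 0 in every library.

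After FOXA1 knockdown, 4 of the 9 genes rose (PRDX6, PRDX4, PRDX3 and SOD2), 3 fell (CAT, PRDX5 and PRDX1), and PRDX2 and SOD1 did not pass the test. The test was limma on log2(normalized count + 1) over 18460 genes with a mean of at least 10, with Benjamini-Hochberg adjusted p under 0.05. Among all tested genes 51.8% passed, 26.8% as higher and 25.0% as lower, and among the 4163 genes averaging 1000 or more counts, the range in which all 9 genes lie, 70.0% passed, 47.7% as higher and 22.3% as lower. The share of the 9 that passed is therefore near that of other genes of their level. When totals were made equal across libraries, 3594 genes came out higher and 5967 lower in place of 4954 and 4617, PRDX2 also passed as lower, and the other 8 calls stayed as they were. The median log2 fold change of the 9 genes was 0.05, against 0.0039 over all tested genes and 0.12 over those averaging 1000 or more. Since these are bulk samples, fewer cells of a kind and less RNA per cell cannot be told apart.

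**Figure D1:**
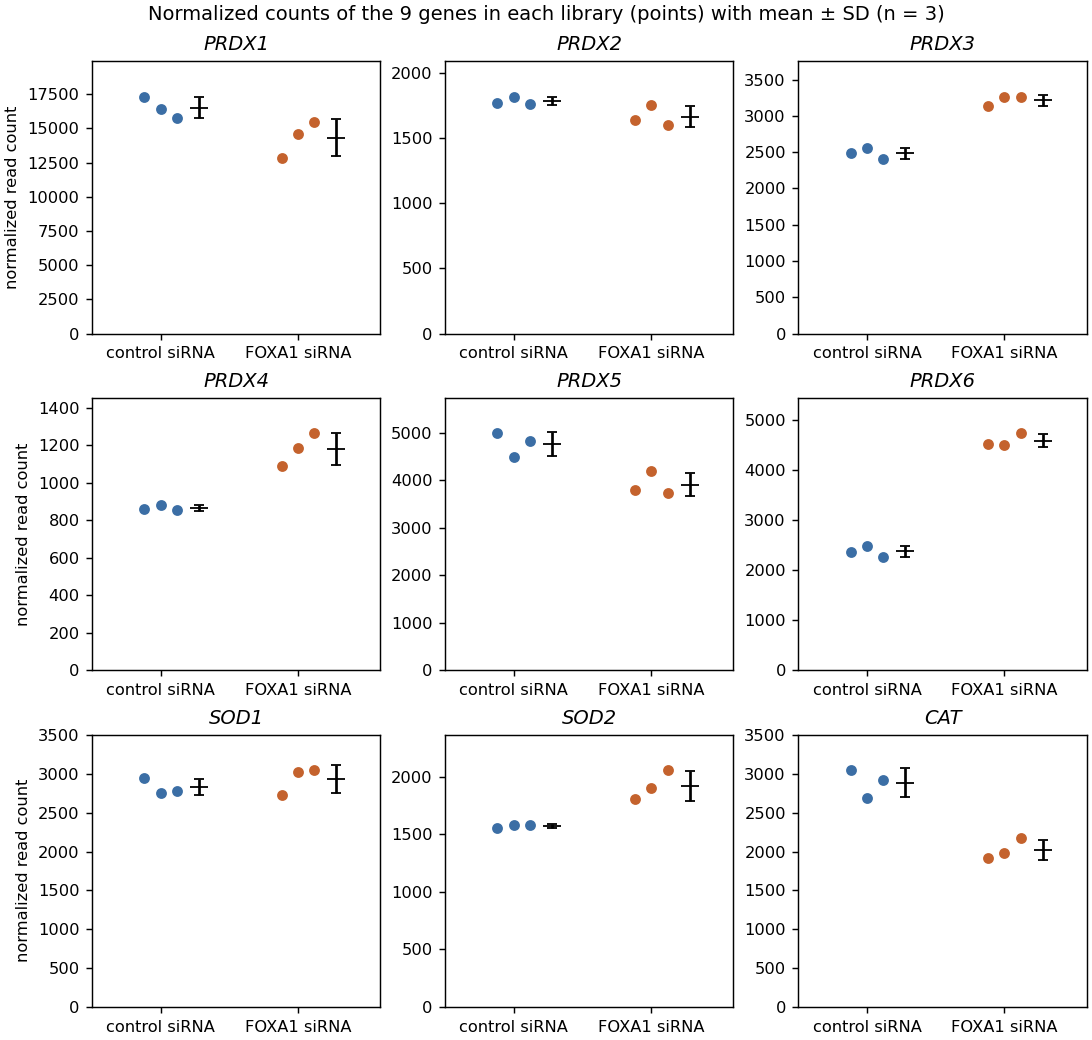
Normalized read counts (vertical axes, from 0) of the 9 genes in the 3 control siRNA and 3 FOXA1 siRNA libraries, 1 point per library, with the group mean and SD (n = 3) beside the points. The groups are apart for every gene but SOD1, and relative to the control level the widest gap is that of PRDX6, at 2268 to 2491 against 4502 to 4732.

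PRDX6 (ENSG00000117592; GRCh38 chromosome 1, 173477266 to 173488807, plus strand, protein-coding), the glutathione-dependent member, showed the largest change of the 9 genes. It had 2358, 2491 and 2268 normalized counts in the control libraries and 4520, 4502 and 4732 in the FOXA1 siRNA libraries. All 3 knockdown libraries were far above all 3 controls, and the SD within a group was 4.73% of the mean for the controls and 2.80% after knockdown. The means were 2372 ± 112 and 4585 ± 128 (SD, n = 3 each), a log2 fold change of 0.95 ± 0.05 (SE, 95% interval 0.85 to 1.05, limma adjusted p = 5.08e-15), or 93.3% more. Of all tested genes, 2.17% rose by at least as much.

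PRDX4 (ENSG00000123131; chromosome X, 23664262 to 23686399, plus strand), the peroxiredoxin of the endoplasmic reticulum, rose by 36.1%. Normalized counts reached 862, 881 and 853 in control libraries, against 1089, 1186 and 1263 in FOXA1 siRNA libraries. The controls lay close together while the knockdown libraries spread more widely, with replicate 1 the lowest, and the groups did not overlap. The log2 fold change was 0.44 ± 0.06 (95% interval 0.31 to 0.58, limma adjusted p = 1.39e-06).

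PRDX3 (ENSG00000165672; chromosome 10, 119167703 to 119178833, minus strand), the mitochondrial peroxiredoxin, rose by 29.5%. It had 2485, 2560 and 2404 normalized counts in the controls and 3131, 3265 and 3253 after knockdown. Both groups were tight and clearly apart. Its log2 fold change was 0.37 ± 0.05 (95% interval 0.27 to 0.47, limma adjusted p = 3.10e-07).

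PRDX1 (ENSG00000117450; chromosome 1, 45511036 to 45523047, minus strand), a cytosolic peroxiredoxin and the most highly counted of the 9 genes, fell by 13.5%. The control libraries held 17327, 16404 and 15792 normalized counts and the FOXA1 siRNA libraries 12830, 14620 and 15474. The groups only just cleared each other, since control replicate 3 was little above FOXA1 siRNA replicate 3. The log2 fold change was -0.21 ± 0.06 (95% interval -0.33 to -0.09, limma adjusted p = 0.00622). Without FOXA1 siRNA replicate 1, the lowest library, it was -0.13 (adjusted p = 0.0221), with quantile normalization it was -0.40, and once limma's trend and robust options were switched off the fall did not pass (adjusted p = 0.103), with all its alternatives at 7.56e-08 to 0.103.

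PRDX5 (ENSG00000126432; chromosome 11, 64318088 to 64321811, plus strand), which works in several compartments, fell to 0.820 of its control level. It had 4989, 4493 and 4824 normalized counts in the controls and 3792, 4197 and 3741 in the knockdown libraries. Every knockdown library was below every control, with FOXA1 siRNA replicate 2 nearest to them. The log2 fold change was -0.29 ± 0.05 (95% interval -0.39 to -0.18, limma adjusted p = 4.24e-05) and reached -0.43 with quantile normalization.

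PRDX2 (ENSG00000167815; chromosome 19, 12796820 to 12801859, minus strand), the other cytosolic peroxiredoxin, did not pass. Normalized counts reached 1770, 1818 and 1759 in control libraries, against 1635, 1755 and 1602 in FOXA1 siRNA libraries. The groups did not overlap, but the highest knockdown library was just under the lowest control. The log2 fold change was -0.10 ± 0.05 (95% interval -0.21 to 0.01, limma adjusted p = 0.126). It was called lower after scaling to equal totals (-0.20, adjusted p = 0.00334) and after quantile normalization (-0.18, adjusted p = 0.00787), with all its alternatives at 0.00334 to 0.295. Of the 6 peroxiredoxins, 3 thus rose, 2 fell and 1 did not pass as deposited.

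SOD2 (ENSG00000112096; chromosome 6, 159669057 to 159745186, minus strand), the manganese enzyme of mitochondria, rose by 21.8%. It had 1556, 1586 and 1585 normalized counts in the controls and 1805, 1902 and 2059 after FOXA1 knockdown. The controls were nearly alike and all 3 knockdown libraries were above them. The log2 fold change was 0.28 ± 0.06 (95% interval 0.17 to 0.40, limma adjusted p = 1.07e-04), or 0.19 with equal totals.

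SOD1 (ENSG00000142168; chromosome 21, 31659622 to 31668931, plus strand), the copper and zinc enzyme, was the single gene of the 9 whose groups overlapped. The control libraries held 2953, 2754 and 2787 normalized counts and the FOXA1 siRNA libraries 2726, 3029 and 3051. The lowest of the 6 libraries was a knockdown library and so were the highest ones. The log2 fold change was 0.05 ± 0.05 (limma adjusted p = 0.440) and turned to -0.05 with equal totals and with quantile normalization. Its 95% interval ran from -0.06 to 0.16.

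CAT (ENSG00000121691; chromosome 11, 34438925 to 34472062, plus strand), the catalase gene, was the gene of the 9 with the largest decrease, and fell by 29.9%. It had 3050, 2690 and 2928 normalized counts in the control libraries and 1923, 1981 and 2169 in the FOXA1 siRNA libraries. The highest knockdown library was well under the lowest control. The means were 2889 ± 183 and 2025 ± 129 (SD, n = 3 each), with a log2 fold change of -0.51 ± 0.06 (95% interval -0.63 to -0.40, limma adjusted p = 1.56e-08). Of all tested genes, 16.2% fell by at least as much.

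**Figure D2:**
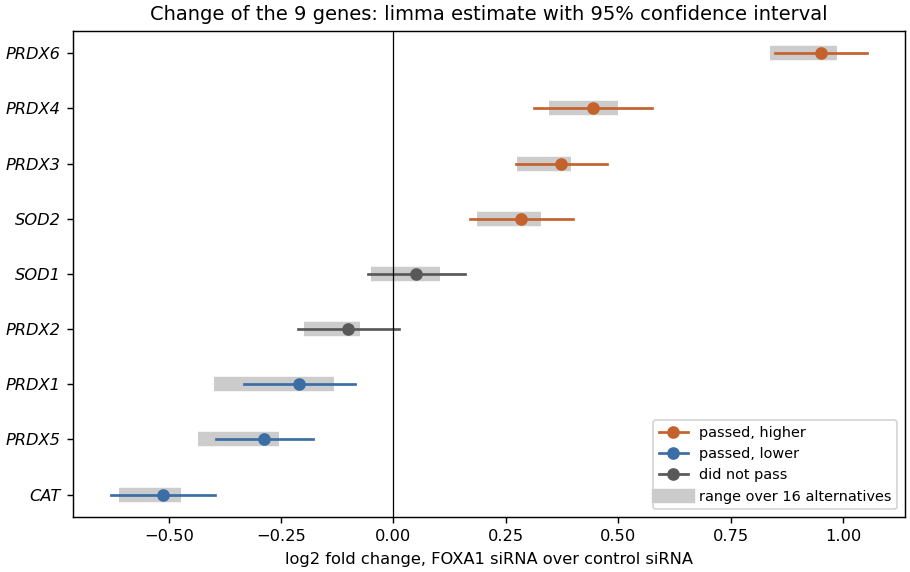
Log2 fold change of each gene, FOXA1 siRNA over control siRNA (horizontal axis), with its 95% interval from limma (line) and the range over 16 alternative settings (grey bar). PRDX6 at 0.95 and CAT at -0.51 mark the ends, and only for SOD1 does the grey bar cross 0.

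Groups were apart, with no overlap, for 8 of the 9 genes, where 57.6% of all tested genes and 74.1% of those averaging 1000 or more showed the same. In the authors' deposited table the same 7 genes had an adjusted p under 0.05, and all 9 fold changes had the sign found here. There the log2 fold change of PRDX6 was 0.95, that of CAT -0.51 and that of PRDX1 -0.21.

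Ratios of 2 genes within a library do not depend on how libraries are scaled to each other. The log2 ratio of PRDX6 to PRDX1 was -2.88, -2.72 and -2.80 in the controls and -1.50, -1.70 and -1.71 after knockdown, a difference of 1.16. All 3 knockdown libraries thus had a higher RNA ratio of the glutathione-dependent to the thioredoxin-dependent member than any control. The enzymes themselves were not measured. The log2 ratio of CAT to PRDX6 went from 0.37, 0.11 and 0.37 to -1.23, -1.18 and -1.12, so CAT had the higher normalized count in every control and PRDX6 in every knockdown library. CAT has the longer transcript, and per kilobase of the longest transcript PRDX6 was already above CAT in each of the 3 controls. The log2 ratio of mitochondrial PRDX3 to PRDX5, which is shared between compartments, was higher by 0.66 after knockdown (-0.94 ± 0.11 to -0.28 ± 0.08, SD, n = 3 each) and that of SOD2 to SOD1 by 0.23 (-0.84 ± 0.07 to -0.61 ± 0.05, SD, n = 3 each). For each of these 4 ratios the groups did not overlap, and the exact two-sided permutation test gave p = 0.1 (0.1 adjusted over the 4), the smallest value that 3 against 3 samples allow. The pairs were chosen with earlier results known, and all but SOD2 to SOD1 set a gene that rose against one that fell. Their separation is therefore no evidence independent of the single genes.

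**Figure D3:**
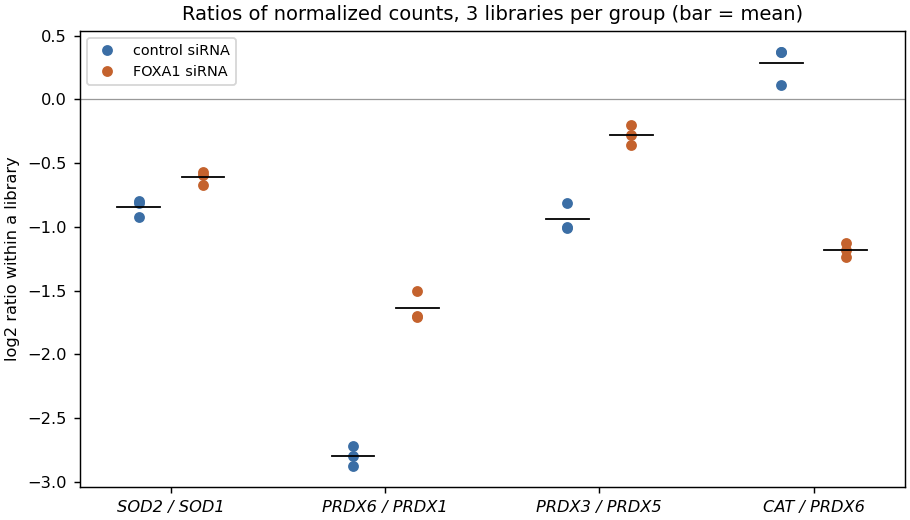
Log2 ratio of the normalized counts of 2 genes within a library (vertical axis) for 4 pairs, 1 point per library, with bars at the group means. The 3 FOXA1 siRNA libraries lie apart from the 3 controls in each pair, and the ratio of CAT to PRDX6 passes from above 0 to below it.

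Levels of different genes can be compared only per length. Per kilobase of the longest annotated transcript, the control means were 13377 for PRDX1, 5340 for PRDX5, 1622 for SOD1, 1355 for PRDX6, 1255 for CAT, 1091 for PRDX3, 1038 for PRDX2, 861 for PRDX4 and 110 for SOD2. This length is not the coding mRNA for PRDX2, PRDX3 and SOD1, whose longest transcripts are not protein-coding, and for SOD2 it is 14266 bases against 990 for its shortest APPRIS principal transcript (the annotation's main coding form). With the latter kind of length, chosen after the data were seen, SOD2 stood at 1591 ± 17.2 counts per kilobase in the controls. The order was then PRDX1 (16168 ± 757), PRDX5 (5340 ± 283), SOD1 (2931 ± 110), PRDX2 (1806 ± 31.5), SOD2, PRDX3 (1561 ± 49.2), PRDX6 (1355 ± 64.0), CAT (1262 ± 79.9) and PRDX4 (861 ± 14.3; SD, n = 3 each). The ranges of SOD2 and PRDX3 overlapped, as did those of PRDX6 and CAT, so the order of these neighbours is not firm. Within each control library PRDX6 was above CAT (1346, 1422 and 1295 against 1332, 1175 and 1279). SOD2 was above PRDX3 in control replicates 1 and 3 but not in replicate 2.

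After knockdown PRDX6 stood at 2618 ± 73.2 counts per kilobase, next after SOD1, and CAT at 884 ± 56.2 was the lowest of the 9 genes on the same lengths. The summed level of the 6 peroxiredoxins was 28116, 26848 and 26307 counts per kilobase in the controls and 24102, 26599 and 26972 after knockdown, and the groups overlapped. Within that sum the share of PRDX6 went from 4.79%, 5.30% and 4.92% to 10.7%, 9.67% and 10.0%. PRDX1 kept the largest share, at 60.4%, 59.8% and 58.8% in the controls and 52.1%, 53.8% and 56.2% after knockdown.

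**Figure D4:**
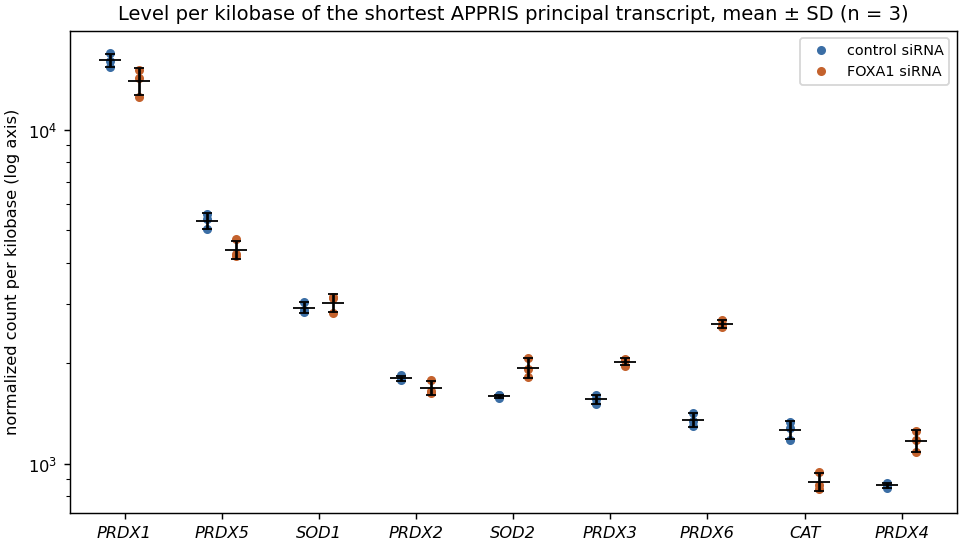
Normalized count per kilobase of the shortest APPRIS principal transcript (vertical axis, log scale) for the 9 genes in order of their control level, 1 point per library with mean and SD (n = 3). PRDX1 stands above all others in both groups, PRDX6 moves from 1355 to 2618 and CAT from 1262 to 884.

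Reads from overlapping genes on the other strand could not be told apart, since the sources used here do not say whether strand was kept. MMACHC, a gene of cobalamin metabolism on the opposite strand, shares 379 exon bases with PRDX1 and had mean normalized counts of 6181 ± 320 and 5450 ± 322 (SD of 3 libraries, change -0.18 in log2, limma adjusted p = 0.00363), a fall like that of PRDX1. An antisense gene that shares 296 exon bases with PRDX2 (ENSG00000267062) had 927 ± 51.4 and 876 ± 27.0 (log2 fold change -0.08, limma adjusted p = 0.307), and WTAP, which shares 298 with SOD2, had 1145 ± 38.8 and 1175 ± 38.6 (0.04, limma adjusted p = 0.622). The part of shared reads in the values of PRDX1, PRDX2 and SOD2 was not tested. A second GENCODE entry named SOD2 (ENSG00000285441) shares 845 exon bases with the first on the same strand but has no row among the deposited counts. Few reads were counted on pseudogenes. Of 14 genes named as pseudogenes of the 9, 9 were at 0 in every library. The highest, PRDX3P1, averaged 4.44 normalized counts, or 0.156% of PRDX3. Since the counting is not given, whether reads that match both a gene and its pseudogene were dropped cannot be told.

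Among 18 tested genes of thiol reduction and peroxiredoxin repair, 8 rose, 4 fell and 6 did not pass (median log2 fold change 0.16). Over all tested genes 26.8% rose and 25.0% fell, and over those averaging 1000 or more 47.7% and 22.3%. TXN, the cytosolic thioredoxin that restores most peroxiredoxins, rose from 2923, 2854 and 2653 normalized counts to 3656, 4072 and 3986 (0.47 ± 0.05, limma adjusted p = 1.58e-08). SRXN1, the sulfiredoxin that repairs overoxidized peroxiredoxins, rose from 2000, 2080 and 2097 to 2587, 2800 and 2656 (0.38 ± 0.05). Both were higher in all 3 knockdown libraries than in any control. TXNRD1, the reductase of thioredoxin, rose by only 0.14 ± 0.05 (limma adjusted p = 0.0258). This call was lost with equal totals (adjusted p = 0.507), quantile normalization (0.289), DESeq2 (0.0516), limma's trend and robust options switched off (0.126), and without control siRNA replicate 2 (0.133) or FOXA1 siRNA replicate 3 (0.0966), with all its alternatives at 0.0203 to 0.507. Of the mitochondrial counterparts of TXN and TXNRD1, TXN2 did not pass (0.10 ± 0.05, limma adjusted p = 0.133) and TXNRD2 fell (-0.23 ± 0.08, limma adjusted p = 0.0167). GLRX5, a mitochondrial glutaredoxin, rose most in the list (0.74 ± 0.07). The sestrin genes SESN3 and SESN1, whose products have been linked to peroxiredoxin repair and to mTORC1 control, fell most (-1.34 ± 0.07 and -1.03 ± 0.10), SESN3 from 1036, 1108 and 1139 to 448, 405 and 442. GSTP1, the glutathione transferase that supplies glutathione to PRDX6, fell from 1676 ± 33.7 to 1331 ± 127 (SD, n = 3 each, -0.34 ± 0.06, limma adjusted p = 5.52e-05).

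PRDX4 works in the endoplasmic reticulum. Among 10 tested genes of thiol oxidation there or later in the secretory pathway, 4 rose, 3 fell and 3 did not pass (median 0.10). The shares were 26.8% higher and 25.0% lower over all tested genes, and 47.7% and 22.3% over those averaging 1000 or more. Only 1 of the 10 was called higher with equal totals, with quantile normalization or with limma's trend and robust options off, while 3, 3 and 2 were called lower. QSOX1, a sulfhydryl oxidase that releases hydrogen peroxide, rose from 1144 ± 39.3 to 2089 ± 56.6 (SD, n = 3 each, 0.87 ± 0.06). ERO1A and ERO1B, the oxidases that recharge protein disulfide isomerase and whose peroxide PRDX4 removes, fell (-0.39 ± 0.05 and -0.63 ± 0.20), the latter not with quantile normalization (adjusted p = 0.0669, with all its alternatives at 0.00397 to 0.0669). PDIA3, a disulfide isomerase, rose by 0.16 ± 0.04, a call lost with equal totals (adjusted p = 0.237) and without the trend and robust options (0.0521), and turned to -0.04 with quantile normalization (0.453), with all its alternatives at 6.93e-04 to 0.453. TXNIP, the inhibitor of thioredoxin, was listed at 0 in all 6 libraries, as was GPX7. Whether these genes were silent or their reads went uncounted cannot be told apart from the table.

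Producers of superoxide or hydrogen peroxide were measurable for 16 of 29 genes. Of these, 3 rose, 8 fell and 5 did not pass (median -0.30), where 26.8% of all tested genes rose and 25.0% fell. Leaving aside genes averaging under 50 counts, RAC2 and ACOX3 fell most (-0.87 ± 0.08 and -0.84 ± 0.13). RAC2 is a small GTPase of the NADPH oxidase complex and ACOX3 a peroxisomal oxidase. RAC1, the widely expressed relative of RAC2, rose (0.48 ± 0.05), as did the polyamine oxidase gene SMOX (0.57 ± 0.11). The catalytic oxidase genes NOX3 and NOX4 were at 0 in every library, while NOX1, NOX5, CYBB and DUOX2 had reads but were too low to test. DUOX1, also a catalytic oxidase gene, had 56.1, 67.6 and 71.1 normalized counts in the controls and 48.2, 48.6 and 46.3 after knockdown. It did not pass (-0.43 ± 0.19, limma adjusted p = 0.0613).

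Among dismutase partners and carriers of metals and other mitochondrial substrates, 9 of 13 tested genes rose, 1 fell and 3 did not pass (median 0.26), where 26.8% of all tested genes rose and 47.7% of those averaging 1000 or more. The copper importer gene SLC31A1 rose (0.54 ± 0.07) and so did SLC25A39, a mitochondrial carrier (0.42 ± 0.05), while the copper exporter gene ATP7A had a mean normalized count of 915 ± 22.0 before and 504 ± 16.8 after (SD of 3 libraries) and fell (-0.86 ± 0.07). CCS, the copper chaperone of SOD1, had 456, 402 and 362 normalized counts in the controls against 450, 482 and 404 after knockdown. These groups overlapped and the change did not pass (0.13 ± 0.09, limma adjusted p = 0.222). SOD3, the extracellular dismutase gene, was too low to test, at 0.951, 0 and 1.05 in the controls and 0 in every knockdown library.

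Peroxisome genes, which serve the compartment of catalase, went both ways, with 7 of 23 higher, 8 lower and 8 not past the test (median -0.08). Over all tested genes, 26.8% were higher and 25.0% lower. The balance of the peroxisome genes depended on scaling, with 5 higher and 12 lower at equal totals and 5 and 10 after quantile normalization. PEX11G fell (-0.82 ± 0.17), and PEX3, needed to form the peroxisomal membrane, rose (0.57 ± 0.09). PXMP2, a peroxisomal membrane protein gene, rose by 0.56 ± 0.19 (limma adjusted p = 0.0245). Its control replicate 3 had 108 normalized counts against 178 and 185 in the other controls, and without that library the log2 fold change was 0.32. The call was lost without FOXA1 siRNA replicate 1 (adjusted p = 0.0616), without FOXA1 siRNA replicate 3 (0.0973) and without the trend and robust options (0.0913), with all its alternatives at 4.64e-05 to 0.0973. In mitochondria, the home of PRDX3 and SOD2, 9 of 13 genes of a quality control list rose, 1 fell and 3 did not pass (median 0.28). The shares that rose were the same 26.8% of all tested genes and 47.7% of those averaging 1000 or more. The list holds chaperone and protease genes and also TFAM, which is neither and was among those that rose (0.28 ± 0.05). The chaperonin genes HSPE1 and HSPD1 rose most (0.81 ± 0.06 and 0.64 ± 0.04, the latter 0.42 with quantile normalization), and SPG7 was the gene that fell (-0.15 ± 0.05, limma adjusted p = 0.0216). The call of SPG7 was lost without control siRNA replicate 2 (adjusted p = 0.0832), control siRNA replicate 3 (0.0601) or FOXA1 siRNA replicate 3 (0.0639) and without the trend and robust options (0.0881), with all its alternatives at 4.11e-04 to 0.0881.

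**Figure D5:**
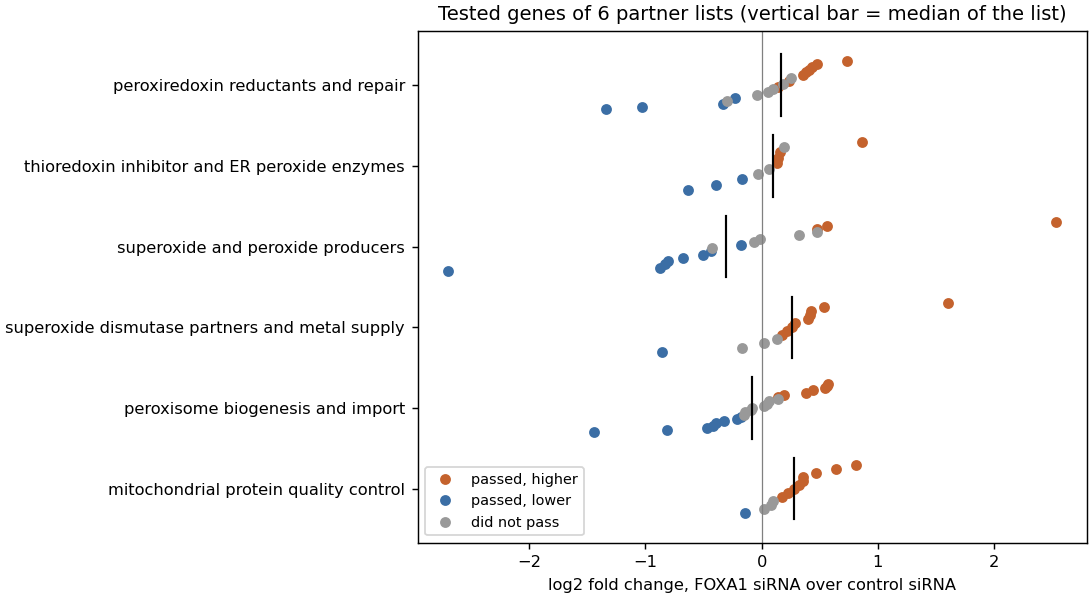
Log2 fold change, FOXA1 siRNA over control siRNA (horizontal axis), of the tested genes in 6 lists of partners, 1 point per gene, coloured by whether limma passed it as higher or lower, with a bar at each list's median and genes averaging under 50 counts included. The medians run from -0.30 for the producers to 0.28 for mitochondrial protein quality control.

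Of 14512 other genes with a mean of at least 50, CASC3 (r = 0.9996), TRIM16 (r = 0.9995) and FHDC1 (r = 0.9994) had the pattern most like that of PRDX6, by Pearson's correlation of log2(normalized count + 1) over the 6 samples. These points share the 2 treatment groups, and 2124 genes had an r of at least 0.95. Promoters of 300 bases in the RefSeq table (GRCh38.p14) were matched for 6 of the 9 genes, all but PRDX1, PRDX6 and SOD1. The forkhead core TGTTTAC, on either strand, stood in 0 of the 6 and in 3.42% of 35116 promoters, and the antioxidant response element core TGACNNNGC in 0 of the 6 and in 13.3%. This says only that these letters are not in those windows.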

How the data were processed

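The authors deposited normalized counts, per the file headers, which are signal values: reads per gene divided by 1 size factor per sample. Per the submitters' processing notes, HISAT2, DESeq2, GRCh38 and GRCm38 were named, without roles; the counting and any strand setting are not given in the sources used here. The authors also deposited log2 fold changes with SE, a test score, and p-values, raw and adjusted, per the file headers. Of 61862 lines, 3 broken ones were left out. Every value was a whole multiple of 1 step per sample (100% within 0.01 read), so reads were recovered.

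Groups came from the sample titles. The test was limma 3.58.1 (R 4.3.3; lmFit, eBayes with trend and robust) on log2(normalized count + 1), genes with a mean of at least 10, Benjamini-Hochberg over all 18460 genes; on this scale changes of low genes are understated. The code was tested on simulated counts. Alternatives were pseudocounts of 0.5 and 5, no filter, a mean of at least 50, equal totals, quantile normalization, limma without trend and robust options, the replicate block, each library left out, and edgeR 4.0.16 and DESeq2 1.42.0 on recovered reads. Counting intervals were not used; the depth limits only low genes. Gene models came from GENCODE 29.

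The genes, partner lists and tests were chosen with earlier results of these data known. Named partners were the top 2 rises and top 2 falls of each list with a mean of at least 50, plus TXN, TXNRD1, SRXN1, CCS, SOD3 and TXNIP. One gene that this rule names is not reported here. GSTP1, GPX7, TXN2, TXNRD2, TFAM, the catalytic oxidase genes (NOX1, NOX3, NOX4, NOX5, CYBB, DUOX1 and DUOX2) and MMACHC with the other overlapping genes were named after their values were seen.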

Additional observations from a re-analysis of the deposited data

How the results depend on the processing

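PRDX3, PRDX4, PRDX5, PRDX6, SOD2 and CAT kept direction and call under all 16 alternatives, PRDX6 between 0.84 and 0.99 and CAT between -0.61 and -0.47 (log2). PRDX1 stayed lower but missed the threshold once limma's trend and robust options were off (-0.21, adjusted p = 0.103). PRDX2 passed as lower with equal totals (-0.20) and quantile normalization (-0.18), and SOD1 turned to -0.0471 and -0.0504. Scaling to equal totals lowers the log2 fold changes by construction, since the normalized totals were higher in the knockdown libraries. Of the partners named by the rule that passed, PDIA3 changed sign (-0.0378 with quantile normalization). The other tested partners, GSTP1, TXN2, TXNRD2 and TFAM among them, were not followed one by one. The number of secretory pathway thiol oxidation genes called higher was 1 in place of 4 with limma's trend and robust options off. It was also 1 with equal totals and with quantile normalization. The number of peroxisome genes called higher was 4 in place of 7 with the options off. The number of mitochondrial genes called lower was 0 in place of 1 with the options off and 0 to 1 over the libraries left out. The cause was not tested. Control levels per kilobase over the union of exons were 10846 for PRDX1, 852 for PRDX2, 727 for PRDX3, 454 for PRDX4, 1002 for PRDX6, 1402 for SOD1, 95.5 for SOD2 and 805 for CAT. On the longest APPRIS principal transcript they were 1806 for PRDX2, 1561 for PRDX3 and 2931 for SOD1, and on the shortest, the same for these and 16168 for PRDX1 and 1591 for SOD2; both were chosen after seeing the data. Libraries of the same replicate number shared no visible deviation: their deviations from the group means correlated at -0.01, 0.01 and -0.01. This cannot tell whether they were handled together, which the labels do not say. With the replicate block 4837 genes were higher and 4495 lower, with the 9 genes' calls unchanged.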
